A study of Mus musculus with 12 samples.

Results

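Acetoacetate (AA), a ketone body, was given for 12 h to dividing C2C12 cells in growth medium (GM), and their messenger RNA was compared with that of cells given PBS in the same medium. C2C12, a widely used mouse myoblast line, has cells that divide in growth medium and, in differentiation medium, stop dividing and fuse into myotubes. The comparison rests on 6 of the 12 libraries of the series, 3 from AA-treated cells (GM-AA) and 3 from PBS-treated cells (GM-PBS), chosen by the medium and treatment in their labels. The other 6 libraries, AA and PBS in differentiation medium (DM-AA and DM-PBS, 12 h, 3 each), entered the shared estimate of the spread. They also entered the choice of genes to test, the scaling of the libraries and the gene means used for the trend with GC content. Beyond that they served for the tests of AA in differentiation medium and of whether an effect differed between media. All cells belong to the same line, and no genotype or further agent is named for any group. The labels give neither the salt in which AA was supplied nor its dose, so an effect of AA below includes that of any counter-ion. Nor is it stated whether each group's 3 libraries are 3 cultures, and the p-values therefore rest on a spread between samples that could be technical.

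Ketone bodies are made by the liver and oxidised elsewhere, mostly in muscle, heart and brain. A cell imports AA through monocarboxylate transporters, activates it to acetoacetyl-CoA with the mitochondrial transferase Oxct1, and splits that with the thiolase Acat1 into acetyl-CoA for the TCA cycle. Myoblasts are kept dividing by serum growth factors that signal through receptor tyrosine kinases and ERK to immediate early genes, while Myod1, Myf5 and Myog, the myogenic regulatory factors, drive the genes of the contractile apparatus.

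Per library, 8484417 to 8801619 reads were assigned to genes in GM-AA, and 8292006 to 8965129 in GM-PBS. Of 23446 genes in the table, 12230 had enough reads to be tested. Levels are given as CPM, counts scaled to a common number of assigned reads. Across genes, Pearson's r of log2 CPM was 0.993 to 0.994 within a group and 0.989 to 0.990 between a GM-AA and a GM-PBS library; it carries no test, as genes are not replicates. The 10 myoblast markers summed to 3018 to 3119 CPM in GM-AA and 2716 to 2796 CPM in GM-PBS, and each of them was tested. Of these, 4 were higher and 2 lower, with a median log2 fold change of 0.055. Most of the sum was Des, whose values are given below. Of 8 endothelial markers none had enough reads to be tested; they summed to 1.53 to 2.44 CPM in GM-AA and 0.735 to 1.69 CPM in GM-PBS, and 3 were at 0 in all 6 libraries. Immune cell markers summed to 54.3 to 60.2 CPM in GM-AA and 34.9 to 39.95 CPM in GM-PBS, with 1 of 3 tested markers higher, the tryptase Tpsab1 described below, and 4 at 0. Adipocyte markers summed to 39.4 to 42.8 CPM in GM-AA and 42.6 to 48.4 CPM in GM-PBS (1 of 3 tested lower), epithelial markers to 82.6 to 88.2 CPM in GM-AA and 98.7 to 100.3 CPM in GM-PBS (1 of 2 lower), and fibroblast markers to 2183 to 2472 CPM in GM-AA and 2307 to 2546 CPM in GM-PBS (1 of 5 lower, 1 higher).

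AA changed 2534 of the 12230 tested genes (20.7%), 1194 upward (9.76%) and 1340 downward (11%). These are genes with a Benjamini-Hochberg adjusted p under 0.05 in edgeR's quasi-likelihood test, called here past the test; "rose" and "fell" are used of such genes only. Most changes were small. The median fold of the risen genes was 1.204 and that of the fallen genes 0.820 of the GM-PBS level. At least 1.5-fold apart were 154 higher genes (1.26%) and 178 lower genes (1.46%), and at least 3-fold apart were 10 and 6. The 3 libraries of GM-AA lay wholly above the 3 of GM-PBS in 2004 genes (16.4%) and wholly below them in 2150 (17.6%), whether or not the gene passed the test. Genes were named partly for such separation or for a small p, so where separation is described below it adds no evidence of its own. The median log2 fold change of all tested genes was -0.0034. The counts of gene lists below stand against the shares of 9.76% higher and 11% lower, and a list near both is not set apart from the other genes by its counts. Values below are CPM in libraries 1, 2 and 3 of a group, and log2 fold changes of GM-AA over GM-PBS with their SE (n = 3 libraries a group).

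**Figure D1:**
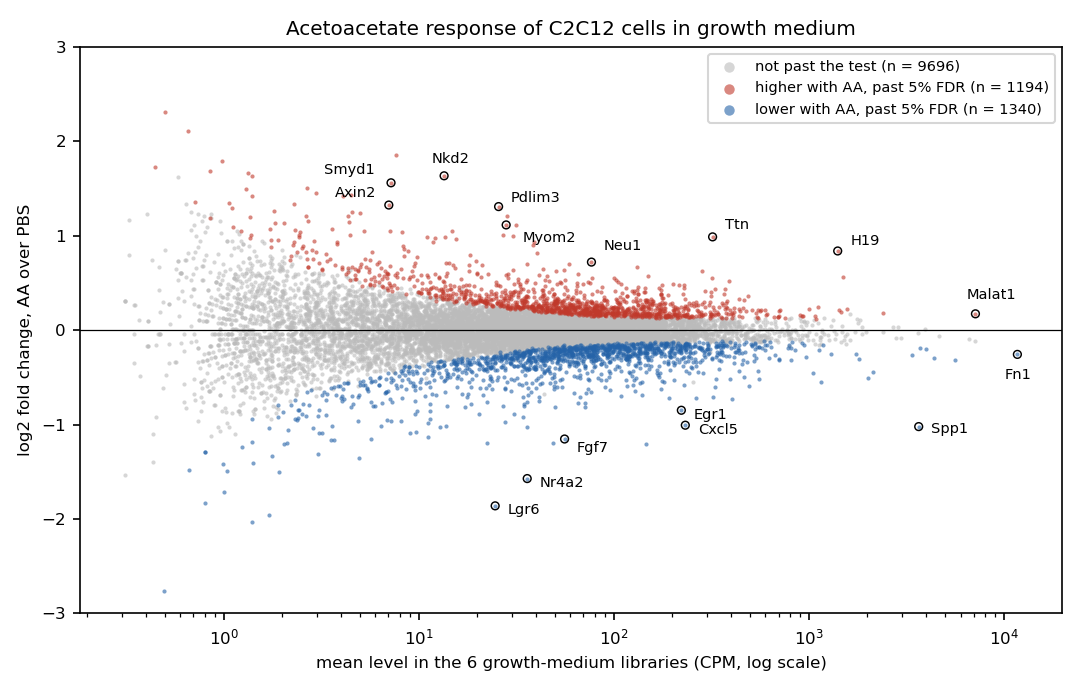
Log2 fold change of AA over PBS in growth medium (vertical axis) against the mean level in the 6 libraries (CPM, log scale) for each tested gene of at least 0.3 CPM; 27 tested genes below that level are not drawn. Red points are the 1194 genes that rose, blue points the 1340 that fell and grey points those not past the test; circled genes are described in the text, and Lgr6 is the lowest and Nkd2 the highest of the circled genes.

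Fold changes followed the base composition of the transcripts. Spearman's rho between a library's deviation from the gene means of all 12 libraries and GC content was -0.177, -0.115 and -0.128 in GM-AA 1 to 3. It was 0.211, 0.00536 and 0.0308 in GM-PBS 1 to 3, and -0.274 between the log2 fold change and GC content across genes. In the quartile of genes lowest in GC content (31.0% to 44.9%), 15.5% rose and 4.71% fell, while in the highest quartile (54.5% to 71.3%) 5.34% rose and 19% fell. Once the trends with GC content and length had been taken out of every library, 2403 genes passed, 1147 of them higher and 1256 lower, and 1985 were among the 2534. What part of any single result the trend accounts for was not tested; where a list count of 4 or more moved by over 1.5 times with the trend removed, that count is given beside it. With the trend removed, list counts below 4 moved by at most 1. Of the lists with no risen gene, ERK feedback, Id and Notch, and mitosis then held 1, and excitation-contraction coupling, with no fallen gene, held 1.

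**Figure D2:**
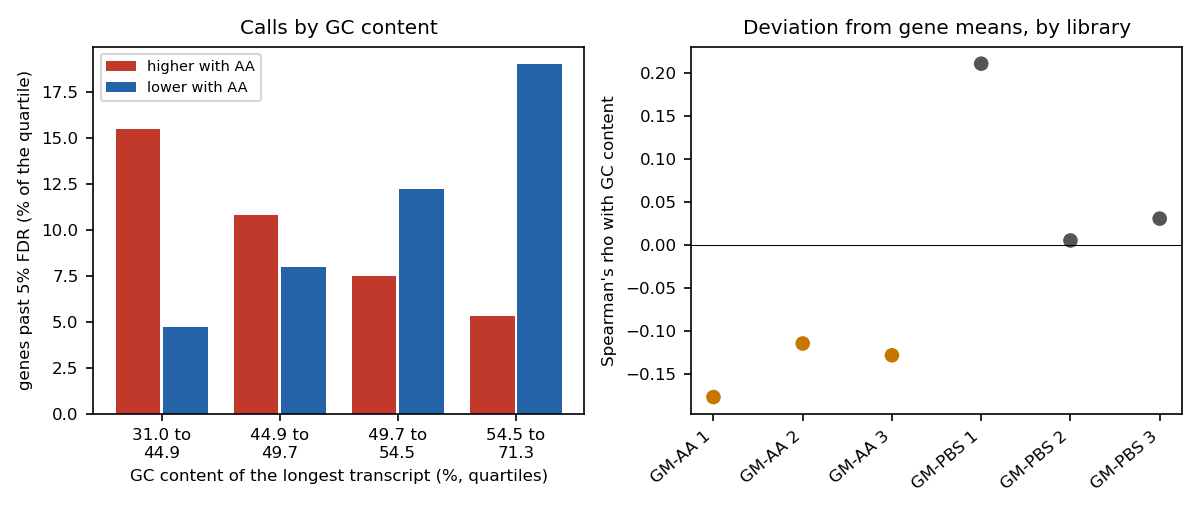
Left, the share of genes that rose (red) or fell (blue) with AA past a 5% false discovery rate in each quartile of transcript GC content; the share that rose falls from 15.5% to 5.34% and the share that fell climbs from 4.71% to 19% with GC content. Right, Spearman's rho of each growth-medium library's deviation from the gene means of all 12 libraries with GC content, the 3 GM-AA libraries below 0 and the 3 GM-PBS libraries above it.

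The immediate early transcription factors, which growth factor signalling switches on before any new protein is made, fell far more often than they rose in AA-treated cells. Of 30 genes in the list, 28 were tested, 13 fell and 2 rose, with a median log2 fold change of -0.15. Egr1, a zinc finger factor of this class, stood at 154, 159 and 163 CPM in GM-AA, against 270.1, 300.0 and 287 CPM in GM-PBS (-0.85 ± 0.053, adjusted p = 1.37e-13). Every GM-AA library lay far below every GM-PBS library. Egr2 and Egr3, its paralogs, moved the same way. Egr2 had 19.6, 22.2 and 23.3 CPM in GM-AA and 40.9, 39.2 and 40.1 CPM in GM-PBS (-0.89 ± 0.084, adjusted p = 1.08e-09), with no overlap of the groups. Nr4a2, an orphan nuclear receptor, showed the largest fall of the list, with 20.4, 18.4 and 15.5 CPM in GM-AA, against 46.0, 59.9 and 56.1 CPM in GM-PBS (-1.57 ± 0.10, adjusted p = 2.09e-13). Again the groups stood well apart. Its relative Nr4a1 did not pass the test (-0.017 ± 0.12, adjusted p = 0.939). In bulk RNA such as this, fewer cells of a kind and less RNA per cell cannot be told apart.

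Myc, the growth-promoting transcription factor, was at 52.5, 51.2 and 53.9 CPM in GM-AA and 88.5, 88.1 and 91.7 CPM in GM-PBS (-0.77 ± 0.061, adjusted p = 3.19e-11). Its libraries were tightly grouped on either side. Among the AP-1 subunits and partners, Maff fell to 79.7, 77.0 and 68.1 CPM in GM-AA, against 109, 121 and 118 CPM in GM-PBS (-0.63 ± 0.059), Junb fell by a log2 value of 0.45 and Jun by 0.26. Fosl1 fell too (-0.81 ± 0.11), but exons of a gene on the opposite strand cover 57.2% of it and the strand of the reads is not given, so its reads may not all be its own. Fos itself missed the threshold (0.22 ± 0.13, adjusted p = 0.248). Klf4, a Krüppel-like factor, rose (0.26 ± 0.050, adjusted p = 0.000241). The fall was thus not shared by every member: 13 of the 28 did not pass in either direction.

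Immediate early promoters are known for the CArG box, the site of serum response factor. In RefSeq promoter windows of mouse genes (GRCm38.p6, 250 bases before to 50 after the start site, both strands searched), 6 of 27 windows of the tested list members held such a box (22.2%), against 1.63% of all 32851 windows. These 6 windows belong to 3 of the 21 members with a window (Egr2, Srf and Zfp36). Across all tested genes, 1.34% of the windows of risen genes, 1.63% of those of fallen genes and 1.28% of those of genes that did not pass held the box. An NF-kB site was as frequent in the list, in 6 of 27 windows, of 6 genes. A match is a description of letters and not a measured site. The Egr2 window, whose gene fell here, is shown as an example, 5′ to 3′ on the gene's strand, with the box in capitals 72 bases before the start site (chr10:67537619-67537868, + strand):
Egr2: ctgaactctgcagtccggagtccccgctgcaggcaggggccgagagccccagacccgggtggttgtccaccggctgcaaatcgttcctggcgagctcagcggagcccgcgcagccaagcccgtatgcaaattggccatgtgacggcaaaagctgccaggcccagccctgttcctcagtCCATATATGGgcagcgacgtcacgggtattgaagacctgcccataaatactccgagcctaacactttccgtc

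Feedback genes of the ERK pathway, many of which are induced by ERK and dampen it, fell as well or did not pass. Of 27 listed genes, 26 were tested; 14 fell and none rose, with 10 to 12 lower when any single library was left out and a median log2 fold change of -0.19. Dusp6, the cytoplasmic phosphatase of ERK, had 52.4, 44.7 and 47.6 CPM in GM-AA, against 81.8, 85.4 and 80.0 CPM in GM-PBS (-0.77 ± 0.068, adjusted p = 2.6e-10). Errfi1, an inhibitor of the EGF receptor, had 202, 198 and 202 CPM in GM-AA and 309, 341 and 343 CPM in GM-PBS (-0.72 ± 0.050, adjusted p = 1.18e-12). In both genes the groups were separated by a gap wider than either group. Dusp10, a phosphatase of p38 and JNK (-0.46 ± 0.054), Etv1, an ETS factor of the pathway's output (-0.69 ± 0.13), and Spry4, a Sprouty inhibitor (-0.41 ± 0.095), also fell. Spry1 (-0.20 ± 0.24, adjusted p = 0.623) and Spry2 (-0.13 ± 0.062, adjusted p = 0.151; 0.0482 with the replicate block and the trend removed) did not pass. Phlda1 fell by a log2 value of 0.31; an opposite-strand gene covers 33.0% of it.

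Upstream of this pathway, ligands and receptors changed in both directions. In the list of growth factors and their receptors, 32 of 35 genes were tested, 12 fell and 4 rose (median -0.16). Fgf7, keratinocyte growth factor, was at 35.2, 36.0 and 33.0 CPM in GM-AA, against 75.9, 83.2 and 72.8 CPM in GM-PBS (-1.15 ± 0.074, adjusted p = 1.76e-13). Hgf, the ligand that activates quiescent satellite cells through the receptor Met, was at 22.7, 24.9 and 23.4 CPM in GM-AA, against 43.1, 48.9 and 52.7 CPM in GM-PBS (-1.03 ± 0.090, adjusted p = 2.23e-10). Neither gene had overlapping groups. Met itself rose slightly (0.18 ± 0.046, adjusted p = 0.00438). The EGF family ligands Ereg (-0.75 ± 0.072) and Hbegf (-0.41 ± 0.079) fell, as did the FGF receptor Fgfr1, with 386, 395 and 378 CPM in GM-AA and 562, 525 and 547 CPM in GM-PBS (-0.50 ± 0.046, adjusted p = 7.74e-10). Vegfa, the endothelial growth factor (-0.34 ± 0.050), and Axl, a receptor tyrosine kinase (-0.30 ± 0.050), were lower too, whereas Pdgfb rose (0.47 ± 0.11, adjusted p = 0.00197).

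**Figure D3:**
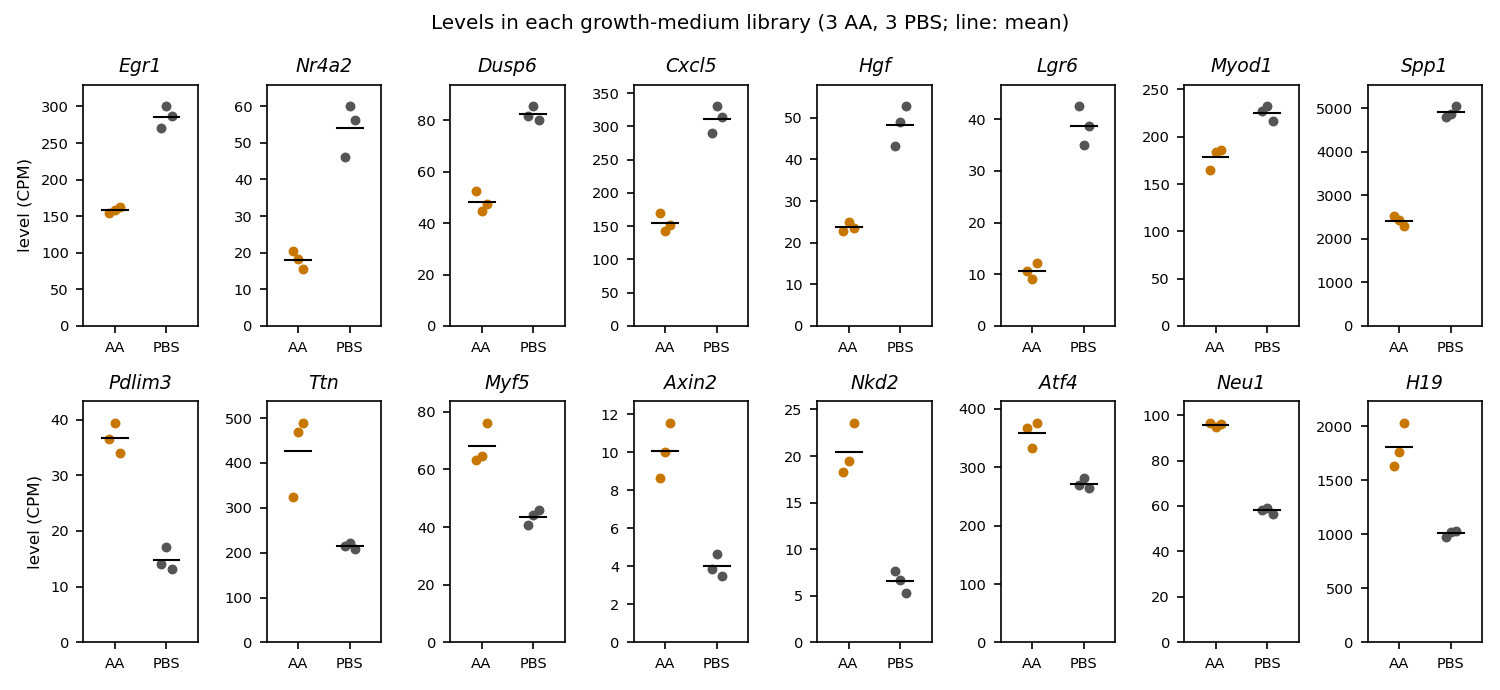
Level (CPM, linear axes from 0) of 16 genes in each growth-medium library, GM-AA at left in orange and GM-PBS at right in grey, with a line at the mean of 3 libraries. The first 8 genes lie lower and the last 8 higher in GM-AA, and in none of the 16 do the groups overlap. Genes were named partly for such separation or for a small p, so it adds no evidence of its own.

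Chemokines and inflammatory genes also held falls and no rises. Of 19 chemokine genes and receptors, 10 were tested, 6 fell and none rose, with a median of -0.42. Cxcl5, a neutrophil chemokine, had 170.2, 142 and 152 CPM in GM-AA, against 289.6, 329.9 and 314 CPM in GM-PBS (-1.01 ± 0.070, adjusted p = 1.18e-12). Ccl2, which attracts monocytes, had 44.5, 40.7 and 43.7 CPM in GM-AA and 65.0, 67.0 and 63.7 CPM in GM-PBS (-0.60 ± 0.072, adjusted p = 1.38e-07). The groups did not overlap in either gene. Cxcl1, another neutrophil chemokine (-0.56 ± 0.087), Cxcl12, which guides migrating myoblasts and stem cells (-0.42 ± 0.050), and Ackr3, its scavenger receptor (-0.58 ± 0.049), fell with them.

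Of 34 NF-kB regulators and inflammatory effectors, 27 were tested; 11 fell, none rose and the median was -0.22. Nos2, the inducible nitric oxide synthase, had 28.7, 31.5 and 28.6 CPM in GM-AA, against 53.9, 76.3 and 73.8 CPM in GM-PBS (-1.2 ± 0.10, adjusted p = 9.34e-11). The GM-PBS libraries spread more than those of GM-AA, and the lowest of them still lay well above every GM-AA library. Nfkbiz, an atypical nuclear IkB (103, 102 and 96.2 CPM in GM-AA, 152, 159 and 158 CPM in GM-PBS, -0.64 ± 0.051), and Ptgs2, the inducible cyclooxygenase (-0.59 ± 0.052), fell, and Slpi, a secreted protease inhibitor, fell by a log2 value of 1.08. Il6 was scarce in both groups, at 0.450, 0.929 and 0.942 CPM in GM-AA and 2.05, 1.84 and 2.29 CPM in GM-PBS, and fell nevertheless (-1.40 ± 0.36, adjusted p = 0.00442). Classical NF-kB feedback genes fell too: Nfkbia, which holds NF-kB in the cytoplasm, by 0.29, and Tnfaip3, the deubiquitinase A20, by 0.29 on the log2 scale. Rela, the main activating subunit, did not pass (-0.12 ± 0.052, adjusted p = 0.0895; 0.0375 without GM-PBS 2).

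An NF-kB site was in 11 of 25 windows of the tested members of that list (44%) and in 2 of 6 chemokine windows, against 4.51% of all windows. It was in 5.27% of the windows of risen genes, 6.31% of those of fallen genes and 5.09% of those of tested genes that did not pass. Il6 (chr5:30012864-30013113, + strand, site 44 bases before the start) and Cxcl1 (chr5:90890995-90891244, + strand, overlapping matches 71 and 70 bases before the start) are shown because both genes fell; capitals mark the matches.
Il6: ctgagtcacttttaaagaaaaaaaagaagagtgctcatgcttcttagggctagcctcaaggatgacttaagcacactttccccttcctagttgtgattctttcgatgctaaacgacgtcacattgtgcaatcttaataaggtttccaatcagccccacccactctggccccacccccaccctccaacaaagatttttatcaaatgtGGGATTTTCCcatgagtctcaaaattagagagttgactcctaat
Cxcl1: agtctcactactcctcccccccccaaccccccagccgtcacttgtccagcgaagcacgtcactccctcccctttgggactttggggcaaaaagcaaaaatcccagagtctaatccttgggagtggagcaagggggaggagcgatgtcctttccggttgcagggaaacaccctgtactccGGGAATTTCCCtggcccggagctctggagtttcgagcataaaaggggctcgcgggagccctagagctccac

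Receptors and effectors that act downstream of IL-6 family cytokines fell in part. All 25 listed genes were tested; 10 fell, 2 rose and the median was -0.15. Pim1, a STAT-induced kinase, had 15.5, 13.2 and 12.0 CPM in GM-AA, against 28.2, 33.2 and 32.5 CPM in GM-PBS (-1.2 ± 0.11, adjusted p = 2.94e-10), with an opposite-strand gene over 14.5% of it. Osmr, the oncostatin M receptor (-0.53 ± 0.053), Socs3, the feedback inhibitor (-0.48 ± 0.050), and Cebpd, a C/EBP factor (-0.65 ± 0.059), fell as well; an opposite-strand gene covers 15.0% of Cebpd. Stat3, the factor that these receptors activate, was not past the test (-0.058 ± 0.050, adjusted p = 0.449).

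Genes of the contractile apparatus rose more often than they fell. Of 71 listed genes, 48 were tested, 23 rose and 2 fell, with a median of 0.52 and 17 to 23 higher when any single library was left out. Pdlim3, an actinin-associated protein of the Z-disc, had 36.6, 39.4 and 33.9 CPM in GM-AA, against 14.1, 17.2 and 13.1 CPM in GM-PBS (1.31 ± 0.099, adjusted p = 9.71e-12). Synpo2l, another Z-disc protein, had 41.0, 42.6 and 46.2 CPM in GM-AA and 20.3, 19 and 20.6 CPM in GM-PBS (1.11 ± 0.086, adjusted p = 1.31e-11). In both, every GM-AA library was well over 1.5 times the highest GM-PBS library. Ttn, the giant elastic protein titin, reached 324, 469.5 and 489 CPM in GM-AA, against 215, 222 and 209 CPM in GM-PBS (0.99 ± 0.100, adjusted p = 4.08e-09). Library GM-AA 1 was lower than the other GM-AA libraries and still clearly above GM-PBS.

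Myom2, of the M-band (37.7, 38.2 and 39.5 CPM in GM-AA, 16.4, 17.8 and 19.1 CPM in GM-PBS, 1.12 ± 0.095), and Mylk2, the skeletal myosin light chain kinase (39.5, 35.3 and 33.1 CPM in GM-AA, 17.2, 19.5 and 17.1 CPM in GM-PBS, 1.01 ± 0.093), rose as well. Smyd1, a muscle-restricted methyltransferase needed for sarcomere assembly, had 9.56, 9.88 and 13 CPM in GM-AA, against 3.87, 4.90 and 2.17 CPM in GM-PBS (1.56 ± 0.20, adjusted p = 4.44e-07). Lmod3, which nucleates thin filaments (1.21 ± 0.22), Xirp2, an actin-binding protein of myotendinous and Z-disc regions (1.42 ± 0.24), and Klhl41, an adaptor that stabilises thin filament proteins (1.15 ± 0.25), rose too. Des, the muscle intermediate filament desmin, rose by less, with 1717, 1659 and 1709.8 CPM in GM-AA and 1485, 1436 and 1433 CPM in GM-PBS (0.22 ± 0.044). Flnc, filamin C, fell (-0.23 ± 0.054, adjusted p = 0.00169). The skeletal actin Acta1 rose by a log2 value of 0.49, but it belongs to a family of near-identical sequences, so its value is uncertain. Ckm, muscle creatine kinase, did not pass despite a large value (0.95 ± 0.40, adjusted p = 0.0921; 0.0388 with no filter on low counts and 0.0327 without GM-AA 1).

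**Figure D4:**
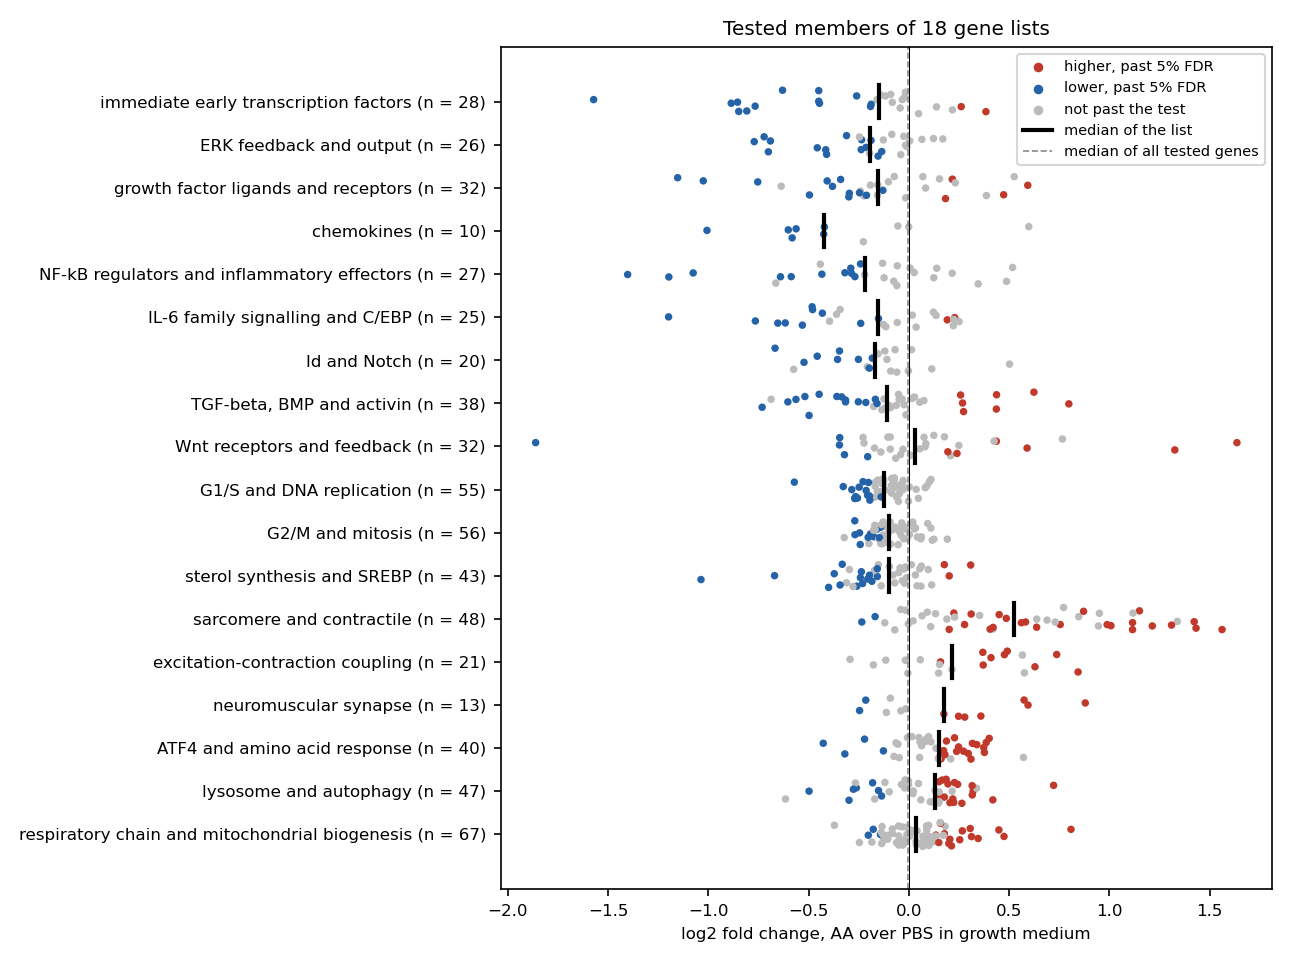
Log2 fold change of AA over PBS in growth medium for each tested member of 18 gene lists (points, spread vertically for legibility), red where a gene rose, blue where it fell and grey where it did not pass the test; a black bar marks the list's median and the dashed line the median of all tested genes. The sarcomere list has its median at 0.52 and the chemokine list at -0.42, the right-most and left-most of the 18.

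Excitation-contraction coupling, the machinery that links membrane depolarisation to calcium release, held risen genes but no fallen ones. Of 31 listed genes, 21 were tested, 9 rose and none fell, with a median of 0.21. Cacng1, the gamma subunit of the skeletal calcium channel, had 135, 122 and 126 CPM in GM-AA, against 93.8, 89.6 and 89.7 CPM in GM-PBS (0.49 ± 0.053, adjusted p = 1.64e-08). Jph2, a junctophilin that ties the plasma membrane to the sarcoplasmic reticulum, had 193, 208 and 217 CPM in GM-AA and 158, 146 and 139 CPM in GM-PBS (0.48 ± 0.057, adjusted p = 1.06e-07). The groups did not overlap. The calcium release channels Ryr3, with 24.5, 25 and 24.1 CPM in GM-AA and 15.6, 14.8 and 13.7 CPM in GM-PBS (0.74 ± 0.11), and Ryr1 (0.84 ± 0.17) rose too. The pumps Atp2a1 (0.15 ± 0.18, adjusted p = 0.601) and Atp2a2 (-0.017 ± 0.043, adjusted p = 0.826) did not pass.

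At the neuromuscular synapse, 13 of 17 listed genes were tested, 7 rose and 2 fell (median 0.17); without GM-AA 3 only 3 rose and without GM-PBS 1 only 4. Chrna1, the alpha subunit of the muscle acetylcholine receptor, had 533, 559 and 563 CPM in GM-AA, against 438, 416 and 436 CPM in GM-PBS (0.36 ± 0.046, adjusted p = 3.72e-07). Chrnd, its delta subunit, had 78.8, 77.6 and 80.5 CPM in GM-AA and 50.4, 52.1 and 54.5 CPM in GM-PBS (0.59 ± 0.058, adjusted p = 1.97e-09). All GM-AA libraries exceeded all GM-PBS libraries. Rapsn, which clusters the receptor, rose by a log2 value of 0.28, and Ncam1, the neural cell adhesion molecule, fell by 0.21.

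The MyoD family binds E-boxes, and the form CAGCTG is the one most associated with muscle promoters. It was in 18 of 44 windows of tested sarcomere genes (40.9%), 5 of 14 of excitation-contraction genes (35.7%) and 5 of 15 of neuromuscular genes (33.3%), but also in 7 of 21 of Id and Notch genes (33.3%), of which none rose, against 16.3% of all windows, 19.1% of those of risen genes, 14.3% of those of fallen genes and 15.3% of those of tested genes that did not pass. The windows of Pdlim3 (chr8:45885237-45885486, + strand, 139 bases before the start) and Chrna1 (chr2:73580339-73580588, - strand, 92 and 44 bases before the start) are shown with the E-boxes in capitals.
Pdlim3: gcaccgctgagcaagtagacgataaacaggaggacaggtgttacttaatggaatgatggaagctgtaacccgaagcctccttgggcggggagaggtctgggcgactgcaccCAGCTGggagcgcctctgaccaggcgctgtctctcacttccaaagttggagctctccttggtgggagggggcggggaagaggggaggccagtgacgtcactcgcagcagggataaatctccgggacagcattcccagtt
Chrna1: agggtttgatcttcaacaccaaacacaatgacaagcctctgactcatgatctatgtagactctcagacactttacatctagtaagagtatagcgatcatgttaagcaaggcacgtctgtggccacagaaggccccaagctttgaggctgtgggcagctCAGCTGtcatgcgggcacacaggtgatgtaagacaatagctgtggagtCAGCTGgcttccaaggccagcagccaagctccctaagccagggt

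The myogenic regulatory factors were split. Myod1 had 165, 184 and 186 CPM in GM-AA, against 227, 232 and 217 CPM in GM-PBS (-0.34 ± 0.049, adjusted p = 3.52e-06). Myf5 had 63.1, 64.6 and 76.1 CPM in GM-AA, against 40.7, 44.2 and 45.9 CPM in GM-PBS (0.64 ± 0.072, adjusted p = 3.5e-08). Thus Myod1 was lower and Myf5 higher in every AA library. Myog, the factor of terminal differentiation, had 12.4, 15.3 and 17.4 CPM in GM-AA and 10.2, 12.5 and 12.6 CPM in GM-PBS; its groups overlap, and its rise (0.35 ± 0.13, adjusted p = 0.0489) was lost when any of several single libraries was left out (adjusted p up to 0.275). Pax7, the satellite cell factor, was not past the test (24.3, 23.7 and 24.8 CPM in GM-AA, 23.4, 21.7 and 22.6 CPM in GM-PBS, adjusted p = 0.454). Of 38 myogenic and myoblast transcription factors, 26 were tested, 4 rose (15.4%) and 5 fell (19.2%), and 2 rose without GM-AA 2 or without GM-PBS 1. Snai1, a repressor that competes with MyoD for E-boxes, fell to 52.8, 46.9 and 52.4 CPM in GM-AA, against 79.2, 84.9 and 85.2 CPM in GM-PBS (-0.71 ± 0.060), and Six5, a homeobox factor, fell by a log2 value of 0.81. Mef2c, which acts with MyoD factors on muscle promoters, rose (3.49, 4.76 and 2.71 CPM in GM-AA, 1.59, 2.08 and 2.41 CPM in GM-PBS, 0.85 ± 0.25, adjusted p = 0.0128; 0.12 without GM-AA 2, 0.0808 without GM-PBS 1 and 0.0512 with DESeq2). The myostatin gene Mstn had too few reads to be tested.

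The Id proteins, which hold MyoD partners away from DNA, were lower. Id1 had 178, 165 and 159 CPM in GM-AA, against 261, 238 and 222 CPM in GM-PBS (-0.52 ± 0.052, adjusted p = 2.67e-09), without overlap. Id2 (-0.46 ± 0.063) and Id3 (-0.35 ± 0.061) fell likewise, and Jag1, a Notch ligand, fell by a log2 value of 0.67. Of 27 Id and Notch genes, 20 were tested, 8 fell and none rose; without GM-AA 1 or without GM-PBS 1, 4 fell. The Notch target Hes1 was not past the test (-0.21 ± 0.10, adjusted p = 0.163). Surface proteins of fusing cells split as well: of 32 tested of 39, 7 rose and 7 fell, with 4 higher without GM-AA 3. Cdh15, M-cadherin, rose to 189.6, 196 and 209 CPM in GM-AA, against 156, 151 and 148 CPM in GM-PBS (0.39 ± 0.051), and the laminin receptor subunit Itga7 rose by 0.23, while Cdh11, a mesenchymal cadherin, and Il4ra, the IL-4 receptor, fell by 0.39 and 0.53 on the log2 scale.

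Wnt signalling works through frizzled and LRP receptors to beta-catenin and TCF factors, and Lgr receptors amplify it when bound by R-spondins. Of 32 tested of 40 genes, 6 rose (18.8%) and 5 fell (15.6%; 3 genes with DESeq2), with a median of 0.03. Lgr6 had 10.7, 9.06 and 12.2 CPM in GM-AA, against 42.4, 34.9 and 38.8 CPM in GM-PBS (-1.86 ± 0.11, adjusted p = 7.91e-14), so its level with AA was 0.275 of that with PBS. Nkd2, an inhibitor of Dishevelled and so of the pathway, had 18.3, 19.5 and 23.6 CPM in GM-AA, against 7.62, 6.74 and 5.29 CPM in GM-PBS (1.64 ± 0.15, adjusted p = 1.08e-09). The groups stood far apart in both genes. Axin2, the scaffold of beta-catenin destruction and a widely used target gene of the pathway, had 8.66, 9.99 and 11.5 CPM in GM-AA and 3.87, 4.66 and 3.49 CPM in GM-PBS (1.33 ± 0.18, adjusted p = 1.31e-06). Tcf7, a TCF factor, had 47.6, 51.7 and 49.8 CPM in GM-AA and 32.0, 33.1 and 34.1 CPM in GM-PBS (0.59 ± 0.079, adjusted p = 9.93e-07). Both were higher in every GM-AA library than in any GM-PBS library, whereas the co-receptor Lrp5 (-0.32 ± 0.054) and beta-catenin itself, Ctnnb1 (-0.21 ± 0.044), fell; an opposite-strand gene covers 14.6% of Ctnnb1. The related factor Lef1 was not past the test (0.054 ± 0.13, adjusted p = 0.815).

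In the TGF-beta, BMP and activin list, 38 of 44 genes were tested, 14 fell and 7 rose (4 without GM-AA 3), with a median of -0.11. Among the ligands, Inhbb, the subunit of activin B, rose to 338, 343 and 355 CPM in GM-AA, against 239.8, 214 and 218 CPM in GM-PBS (0.62 ± 0.048, adjusted p = 1.51e-11), and the ligand Tgfb2 rose (0.80 ± 0.13), while Tgfb1 fell (-0.36 ± 0.054). The type II receptor Tgfbr2 had 369.7, 388 and 382 CPM in GM-AA and 279, 281 and 282 CPM in GM-PBS (0.44 ± 0.045, adjusted p = 6.23e-09). The groups of Inhbb and Tgfbr2 were far apart. Lower were the signal transducer Smad3 (-0.45 ± 0.051), the inhibitory Smads Smad6 (-0.60 ± 0.12) and Smad7 (-0.56 ± 0.074), and the matrix proteins that store latent ligand or resemble those that do, Ltbp1 (-0.50 ± 0.050) and Ltbp2. Ltbp2 had 297, 319 and 299 CPM in GM-AA, against 522, 502 and 496 CPM in GM-PBS (-0.73 ± 0.045, adjusted p = 8.35e-14), with no overlap.

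Matrix genes included the largest falls in absolute level, those of Spp1 and Fn1. Of 60 tested of 69, 16 fell and 8 rose (median -0.05). Spp1, the secreted glycoprotein osteopontin, had 2525, 2432 and 2296 CPM in GM-AA, against 4810.3, 4869.7 and 5042 CPM in GM-PBS (-1.02 ± 0.049, adjusted p = 1.95e-16); another gene on the same strand covers 18.8% of it. Its level with AA was 0.493 of that with PBS, in tight groups. Spp1 is also in the list of 18 osteoblast and chondrocyte markers, of which 7 were tested and 3 fell. That list summed to 2521 to 2734 CPM in GM-AA and 5081 to 5324 CPM in GM-PBS, nearly all of it Spp1, and the bone sialoprotein gene Ibsp and Sost were at 0 in all 6 libraries. The chondrocyte factor Sox9 (110.0, 103 and 116 CPM in GM-AA, 157, 160.2 and 169 CPM in GM-PBS, -0.56 ± 0.058) fell as well. Fn1, fibronectin, had 10060.0, 11439 and 10600.0 CPM in GM-AA, against 12968, 12493 and 12881 CPM in GM-PBS (-0.26 ± 0.045, adjusted p = 8.02e-05). Lox, the collagen cross-linking oxidase (1576, 1681 and 1709.8 CPM in GM-AA, 2233, 2395 and 2429 CPM in GM-PBS, -0.51 ± 0.049), Tnc, tenascin C (-0.55 ± 0.057), and Loxl3 (-0.63 ± 0.065) also fell. Upward went Postn, periostin, with 45.9, 52.9 and 57.0 CPM in GM-AA and 25.6, 29.6 and 33.0 CPM in GM-PBS (0.82 ± 0.094), Ogn, osteoglycin, with 45.8, 45.5 and 60.4 CPM in GM-AA and 27.0, 25.7 and 28.4 CPM in GM-PBS (0.90 ± 0.095), and the basement membrane protein Nid1 (0.21 ± 0.046). Sparc rose slightly (0.18 ± 0.049, adjusted p = 0.00723; 0.0588 without GM-PBS 1). Smoc2, a SPARC-related matricellular protein, fell to 19.8, 18.5 and 17.9 CPM in GM-AA, against 36.3, 36.6 and 37.8 CPM in GM-PBS (-0.98 ± 0.093).

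Inhibitors and enzymes of matrix turnover moved with them: of 30 tested of 33, 11 fell and 5 rose (3 without GM-PBS 1). Timp1, an inhibitor of metalloproteases, had 253, 242 and 243 CPM in GM-AA, against 407, 403 and 393 CPM in GM-PBS (-0.70 ± 0.046, adjusted p = 2.09e-13). Serpinb2, an inhibitor of plasminogen activators (-0.70 ± 0.081), and Thbd, thrombomodulin (-0.53 ± 0.057), fell, and so did Timp3 (-0.43 ± 0.046), which an opposite-strand gene covers by 21.3%. Serpinb6b, an intracellular serpin, rose (15.9, 14.1 and 13.8 CPM in GM-AA, 6.49, 8.45 and 7.22 CPM in GM-PBS, 0.98 ± 0.14). YAP and TEAD targets were mixed, with 6 of 22 lower and 1 higher; 3 were lower without GM-AA 1, without GM-PBS 2 or without GM-PBS 3. Ctgf, the connective tissue growth factor, fell to 464, 489 and 416 CPM in GM-AA, against 648, 649.8 and 663 CPM in GM-PBS (-0.52 ± 0.052; an opposite-strand gene covers 23.2% of it), while Vgll2, a muscle cofactor of TEAD, rose (0.89 ± 0.16).

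Cell cycle genes fell in part and by small amounts. Of 55 genes of G1/S and DNA replication, all tested, 15 fell (9 with DESeq2) and none rose, and the median was -0.13. The largest fall was that of Pold1, the catalytic subunit of DNA polymerase delta, with 25.8, 24.3 and 28.6 CPM in GM-AA, against 40.1, 39.7 and 37.1 CPM in GM-PBS (-0.57 ± 0.088, adjusted p = 1.18e-05), in groups that do not overlap. Pole, of polymerase epsilon (-0.28 ± 0.063), and the helicase subunits Mcm7 (-0.25 ± 0.052) and Mcm5 (-0.21 ± 0.049) fell with it. Of 56 mitotic genes, all tested, 10 fell and none rose, but this count is unstable. It was 6 with only the growth-medium libraries in the fit, 6 with DESeq2, 20 with the GC and length trend removed, 5 without GM-AA 1, 6 without GM-AA 2, 6 without GM-PBS 1 and 5 without GM-PBS 3. Aurkb, a mitotic kinase, had 68.3, 71.9 and 75.7 CPM in GM-AA and 84.9, 85.5 and 85.6 CPM in GM-PBS (-0.25 ± 0.054, adjusted p = 0.00111), and the condensin subunit Ncapd2 fell by a log2 value of 0.27.

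Ccnd1, cyclin D1, fell slightly, with 389.9, 391 and 405 CPM in GM-AA, against 441, 455 and 423 CPM in GM-PBS (-0.15 ± 0.047, adjusted p = 0.0176). The call was lost without GM-AA 2 (adjusted p = 0.055), without GM-PBS 1 (0.0526) and without GM-PBS 2 (0.0942), and an opposite-strand gene covers 23.4% of it. Mki67, the proliferation marker Ki-67, did not pass (763, 863 and 851 CPM in GM-AA, 862, 888 and 888 CPM in GM-PBS, -0.091 ± 0.056, adjusted p = 0.267); with the GC and length trend removed its adjusted p was 0.0402. Cdkn1a, the CDK inhibitor p21, did not pass either (562, 502 and 578 CPM in GM-AA, 577, 563 and 567 CPM in GM-PBS, -0.056 ± 0.047, adjusted p = 0.435). Of 28 tested genes of cell cycle exit, 3 rose and 5 fell (3 without GM-PBS 1 or without GM-PBS 2), led by the cyclin Ccng2 (-0.49 ± 0.056). These are 10.7% and 17.9%, against 9.76% and 11% of all tested genes. Among p53 targets, 8 of 30 rose (5 without GM-AA 1) and 1 fell. Pmaip1, the BH3-only protein Noxa, had 42.1, 46.8 and 44.3 CPM in GM-AA and 24.9, 26.5 and 30.7 CPM in GM-PBS (0.70 ± 0.083, adjusted p = 1.12e-07), and Eda2r, a TNF receptor family member, rose by 0.51.

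Genes of ketone body use, the route of the added compound, passed about as often as tested genes in general. Of 23 listed, 12 were tested; 1 rose (8.33%, against 9.76% of all tested genes), namely Acat1, and 2 fell (16.7%, against 11%; Slc16a3 and the citrate carrier Slc25a1, whose adjusted p was 0.139 with the GC and length trend removed). Oxct1 had 306, 298 and 274 CPM in GM-AA, against 262, 267 and 277 CPM in GM-PBS (0.12 ± 0.050, adjusted p = 0.0756), in overlapping groups; without GM-AA 3 its adjusted p was 0.0276. Acat1 rose slightly (52.9, 55.0 and 51.2 CPM in GM-AA, 45.5, 46.8 and 45.1 CPM in GM-PBS, 0.21 ± 0.065, adjusted p = 0.0179), but not with the GC and length trend removed (0.0507) and not in every leave-one-out fit (adjusted p up to 0.0788). Of the carriers, Slc16a1, MCT1, was not past the test (0.065 ± 0.044, adjusted p = 0.328) and Slc16a3, MCT4, fell (239, 243 and 229 CPM in GM-AA, 270.1, 265 and 269 CPM in GM-PBS, -0.18 ± 0.047, adjusted p = 0.00619). Bdh1, which interconverts AA and beta-hydroxybutyrate, was scarce, at 3.94, 2.79 and 2.71 CPM in GM-AA and 3.07, 2.45 and 2.41 CPM in GM-PBS (adjusted p = 0.566).

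In the TCA cycle and pyruvate list, 6 of 41 tested genes rose (14.6%) and 5 fell (12.2%; 3 genes with the GC and length trend removed), near the 9.76% and 11% of all tested genes. Subunits of the mitochondrial isocitrate dehydrogenase rose: Idh3a had 99.56, 104 and 98.4 CPM in GM-AA, against 77.3, 80.2 and 78.7 CPM in GM-PBS (0.35 ± 0.052, adjusted p = 4.7e-06), and Idh3b rose by a log2 value of 0.32. The cytosolic enzyme Idh1 fell (-0.35 ± 0.057, adjusted p = 2.97e-05), as did Pdk1, which inhibits pyruvate dehydrogenase (-0.23 ± 0.044). Of 67 tested respiratory chain and mitochondrial genes, 15 rose (8 without GM-AA 2, 9 without GM-PBS 3, 7 with DESeq2) and 3 fell; Cox6c, of complex IV, had 151, 192 and 156 CPM in GM-AA and 122, 115 and 129 CPM in GM-PBS (0.45 ± 0.067), and Atp5f1, of the ATP synthase, rose by 0.27. The coactivators Ppargc1a (2.48, 2.56 and 3.42 CPM in GM-AA, 1.37, 0.735 and 1.68 CPM in GM-PBS, 1.14 ± 0.32, adjusted p = 0.00876, but 0.0562 without GM-AA 3 and 0.0612 without GM-PBS 2) and Ppargc1b, which promote mitochondrial biogenesis, rose (Ppargc1b at 16.9, 17.1 and 16.5 CPM in GM-AA, 12.2, 12.4 and 12.6 CPM in GM-PBS, 0.44 ± 0.11, adjusted p = 0.00413).

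In glycolysis, 9 of 43 tested genes fell and 2 rose. Slc2a1, the glucose carrier GLUT1, had 675, 621 and 589.7 CPM in GM-AA, against 761, 816 and 748 CPM in GM-PBS (-0.30 ± 0.053, adjusted p = 7.06e-05), and Pfkl, the liver type of phosphofructokinase, fell by a log2 value of 0.28. Txnip, an arrestin that restrains glucose uptake and is induced by sugar phosphates, had 15.9, 18.2 and 20.5 CPM in GM-AA, against 9.45, 9.68 and 8.42 CPM in GM-PBS (0.98 ± 0.12, adjusted p = 3.03e-07). All GM-AA libraries lay above the GM-PBS libraries by more than 1.5-fold; an opposite-strand gene covers 19.4% of Txnip. Its relative Arrdc4, which responds to the same sugar sensor, was almost absent (0.225, 0.465 and 0.236 CPM in GM-AA, 0.341, 0.368 and 0.602 CPM in GM-PBS, adjusted p = 0.648), and Arrdc3, another arrestin, fell (-0.51 ± 0.084).

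Sterol synthesis genes fell more often than they rose, with 15 of 43 tested members lower and 3 higher; 9 were lower without GM-AA 3 and 8 without GM-PBS 1. Insig1, which retains the SREBP activator in the endoplasmic reticulum and is itself an SREBP target, had 47.4, 52.7 and 45.1 CPM in GM-AA, against 81.3, 80.7 and 69.0 CPM in GM-PBS (-0.67 ± 0.075, adjusted p = 3.81e-08). Acly, which makes cytosolic acetyl-CoA, fell (-0.26 ± 0.049), while Sc4mol, a sterol methyl oxidase, rose (130.5, 115 and 127 CPM in GM-AA, 92.3, 105 and 104 CPM in GM-PBS, 0.31 ± 0.055). Of 42 tested fatty acid oxidation genes, 6 rose and 6 fell (14.3% each way, near the 9.76% and 11% of all tested genes; 3 fell without GM-AA 3 or without GM-PBS 1); Angptl4, a secreted lipase inhibitor and PPAR target, fell to 77.1, 68.7 and 67.0 CPM in GM-AA, against 103, 99.97 and 104 CPM in GM-PBS (-0.53 ± 0.066), and Acsl3, an acyl-CoA synthetase, rose by 0.32. Acsbg1, an acyl-CoA synthetase of another class, fell to 22.6, 25.4 and 23.0 CPM in GM-AA, against 45.9, 44.7 and 43.8 CPM in GM-PBS (-0.92 ± 0.078).

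Genes of the amino acid response, driven by the transcription factor ATF4, rose more often than they fell. Of 43 listed genes, 40 were tested; 17 rose, 4 fell and the median was 0.15. Without GM-AA 1 or without GM-PBS 3, 11 rose, and without GM-AA 2 or without GM-PBS 1, 2 fell. Atf4 itself had 367, 333 and 376 CPM in GM-AA, against 269, 281 and 265 CPM in GM-PBS (0.40 ± 0.049, adjusted p = 2.08e-07). Nars, the asparaginyl-tRNA synthetase, had 208, 197 and 185 CPM in GM-AA, against 155, 149 and 151 CPM in GM-PBS (0.37 ± 0.052, adjusted p = 2.08e-06). The libraries of the groups do not overlap in either gene. Other synthetases rose, Aars, of alanine, to 260.0, 258 and 261 CPM in GM-AA, against 222, 222 and 221 CPM in GM-PBS (0.23 ± 0.043), and Cars, of cysteine (0.30 ± 0.077). Atf5, a factor translated under the same control (0.32 ± 0.047), Slc7a5, the importer of large neutral amino acids (0.38 ± 0.062), and Aldh1l2, of mitochondrial folate metabolism (0.31 ± 0.053), were higher. Ddit4, an inhibitor of mTORC1 (-0.32 ± 0.052), and Eif4ebp1, a brake on cap-dependent translation (-0.22 ± 0.055), fell although both are counted in the list. Sesn2 was not past the test (-0.055 ± 0.089, adjusted p = 0.719).

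The ATF4 element TGATGNAA, searched on both strands, was in 12 of 38 windows of tested list members (31.6%) and in 3.97% of all windows; it was in 3.18% of windows of risen genes, 1.48% of those of fallen genes and 2.25% of those of tested genes not past the test. The Aars window (chr8:111033592-111033841, + strand) holds it on the reverse strand 112 bases before the start, in capitals.
Aars: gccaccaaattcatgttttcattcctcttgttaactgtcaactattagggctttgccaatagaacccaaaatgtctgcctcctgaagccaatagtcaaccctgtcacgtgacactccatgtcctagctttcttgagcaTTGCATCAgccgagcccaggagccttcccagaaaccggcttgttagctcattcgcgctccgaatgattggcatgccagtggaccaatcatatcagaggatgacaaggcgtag

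Of 47 tested of 50 lysosome and autophagy genes, 18 rose and 7 fell (4 without GM-AA 2 or without GM-AA 3), with a median of 0.13. Neu1, the lysosomal sialidase, had 96.5, 94.9 and 95.9 CPM in GM-AA, against 58.4, 59.2 and 56.7 CPM in GM-PBS (0.72 ± 0.057, adjusted p = 1.85e-11). Atp6v1a, the catalytic subunit of the proton pump, had 338, 334 and 341 CPM in GM-AA, against 249.8, 248 and 261 CPM in GM-PBS (0.42 ± 0.044, adjusted p = 1.17e-08). The spread within either group was a small part of these differences. Lamp2, a membrane protein of lysosomes (525, 520.3 and 500.4 CPM in GM-AA, 400.4, 412 and 429 CPM in GM-PBS, 0.32 ± 0.046), and Ctsb, cathepsin B (0.19 ± 0.045), rose too. Rragd, a Rag GTPase that signals amino acid supply from the lysosome to mTORC1, rose to 49.5, 49.1 and 55.2 CPM in GM-AA, against 27.2, 25.8 and 27.6 CPM in GM-PBS (0.93 ± 0.077, adjusted p = 6.64e-11). Lower were Wipi1, which acts on early autophagosome membranes (42.1, 41.4 and 39.9 CPM in GM-AA, 57.0, 56.8 and 60.4 CPM in GM-PBS, -0.50 ± 0.062), and the initiating kinase Ulk1 (-0.28 ± 0.054).

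Many lysosomal promoters carry the palindrome TCACGTGA, the site of the TFEB family. This motif was chosen after the values were seen. It was in 7 of 44 windows of tested list members (15.9%) and 0.974% of all windows, and in 3.51% of windows of risen genes, 1.48% of those of fallen genes and 1.69% of those of tested genes not past the test. The Atp6v1a window (chr16:44139260-44139509, - strand) has it 132 bases before the start, in capitals. Of the tested genes 78.3% had a promoter window, so all promoter shares given here leave out the others. Further motifs were searched. The sterol element core was in 1 of 41 windows of sterol synthesis genes (2.44%), against 2.87% of all windows. The TEAD site was in 15 of 23 YAP and TEAD windows (65.2%), against 14.7%. In immediate early windows the AP-1 site was in 0 of 27, against 7.81%, and the EGR site in 1 of 27 (3.7%), against 0.612%. A list of known targets of a factor can hold its site whatever AA does. Median GC content of the windows was 61.0% for risen genes, 62.3% for fallen genes, 60.7% for tested genes not past the test and 52.7% for all windows, and its part in the motif shares was not tested.
Atp6v1a: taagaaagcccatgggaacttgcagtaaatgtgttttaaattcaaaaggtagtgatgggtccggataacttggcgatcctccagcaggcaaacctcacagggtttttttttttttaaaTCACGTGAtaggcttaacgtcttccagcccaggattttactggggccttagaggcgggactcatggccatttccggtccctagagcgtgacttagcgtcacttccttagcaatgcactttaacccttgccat

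Growth control genes of the IGF and FoxO system split, with 10 of 40 tested higher and 8 lower. The imprinted non-coding RNA H19 had 1629.6, 1759.7 and 2029 CPM in GM-AA, against 973, 1023 and 1031 CPM in GM-PBS (0.84 ± 0.063, adjusted p = 8.76e-12), without overlap. Igfbp5, an IGF-binding protein made by myoblasts, had 1675, 1783 and 1928 CPM in GM-AA, against 1185, 1231 and 1216 CPM in GM-PBS (0.57 ± 0.046, adjusted p = 4.2e-11). Igf2, which lies beside H19, rose from a low level (6.30, 6.74 and 7.07 CPM in GM-AA, 3.87, 5.02 and 3.01 CPM in GM-PBS, 0.76 ± 0.18), with 62.8% of it covered by a gene of the same strand. Fbxo32, the atrophy ubiquitin ligase atrogin-1, fell to 148, 140.3 and 148 CPM in GM-AA, against 224, 243 and 249 CPM in GM-PBS (-0.72 ± 0.049, adjusted p = 9.22e-13). Trim63, the other classical atrophy ligase (MuRF1), moved the opposite way at very low levels, with 1.01, 1.28 and 0.942 CPM in GM-AA, against 0.341, 0.123 and 0.241 CPM in GM-PBS (2.11 ± 0.55, adjusted p = 0.00516). So these ligases, usually named together as markers of muscle wasting, did not move as a pair. Deptor, an inhibitor of mTOR (-0.70 ± 0.054), fell, and Irs1, the insulin receptor substrate, rose (0.44 ± 0.049); an opposite-strand gene covers 30.9% of Irs1.

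Among ion and stress genes, Sgk1, a kinase induced by serum and cell shrinkage, fell to 35.4, 30.4 and 29.0 CPM in GM-AA, against 45.4, 50.5 and 49.0 CPM in GM-PBS (-0.61 ± 0.085), and the carbonic anhydrases Car3 (13.6, 14.9 and 18.1 CPM in GM-AA, 7.28, 8.94 and 8.18 CPM in GM-PBS, 0.93 ± 0.15) and Car2 (1.25 ± 0.20) rose. Of 31 tested osmotic and ion transport genes, 6 rose and 7 fell; 3 fell without GM-AA 1, without GM-AA 2 or without GM-PBS 1, and 4 without GM-PBS 3 or with DESeq2. Of 44 tested antioxidant genes, 10 fell (6 without GM-AA 3) and 3 rose, and Pgd, of the pentose phosphate pathway, fell by a log2 value of 0.31. Of 33 tested chaperone and unfolded protein response genes of the endoplasmic reticulum, 4 rose (1 without GM-AA 3 or without GM-PBS 1, 2 with DESeq2) and 4 fell (7 with the GC and length trend removed), with Creb3l1 lower by 0.33. Of 45 tested genes in the list of ribosome production, which also holds factors that pair with Max, the partner of Myc, 6 rose and 3 fell. Those that fell were Mxi1 (-0.44 ± 0.062), Mxd4 (-0.70 ± 0.10) and Mnt (-0.38 ± 0.063), which all compete with Myc for Max, and no other member fell. Mga, which also pairs with Max, was among those that rose (by a log2 value of 0.25). Of 14 tested interferon-stimulated genes, 2 rose and 1 fell, the scarce Ifit1 (0.338, 0.349 and 0.942 CPM in GM-AA, 1.82, 2.08 and 2.89 CPM in GM-PBS, -2.04 ± 0.39). Over all tested genes 9.76% rose and 11% fell. Near these were the chaperone list (12.1% each way), the ribosome list (13.3% and 6.67%) and the interferon list (14.3% and 7.14%). The osmotic list had 19.4% and 22.6%, and the antioxidant list 6.82% and 22.7%.

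Genes outside the pathways above were among the largest folds of those reaching 5 RPKM in the higher group. Tpsab1, a mast cell tryptase, had 41.1, 39.9 and 37.3 CPM in GM-AA, against 17.0, 16.3 and 18.1 CPM in GM-PBS (1.2 ± 0.093, adjusted p = 1.31e-11), in tight groups. Of the other 11 immune markers, 2 were tested and neither passed, and Kit, the stem cell factor receptor that defines mast cells, was at 0 in all 6 libraries. Tppp3, a tubulin-binding protein (155, 162 and 168 CPM in GM-AA, 104, 108 and 91.7 CPM in GM-PBS, 0.67 ± 0.061), and Prr9, a proline-rich protein (0.79 ± 0.15), also rose. Downward went Dhrs3, a retinal reductase (9.79, 8.13 and 7.54 CPM in GM-AA, 14.9, 19.5 and 17.6 CPM in GM-PBS, -1.02 ± 0.12), Tigit, an immune receptor (-0.96 ± 0.16), Sprr2e, of a family of near-identical genes and therefore uncertain (-1.02 ± 0.19), and Bckdha, of branched-chain amino acid oxidation (-0.94 ± 0.14), which an opposite-strand gene covers by 61.7%.

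By absolute level, the non-coding nuclear RNA Malat1 gained most, with 7286, 7540.0 and 7928 CPM in GM-AA, against 6489, 6917 and 6772 CPM in GM-PBS (0.17 ± 0.045, adjusted p = 0.00518). Vim, the intermediate filament vimentin, fell to 5168, 4852 and 5021 CPM in GM-AA, against 6490.4, 6084 and 6104 CPM in GM-PBS (-0.31 ± 0.045, adjusted p = 3.35e-06). The groups did not overlap in either. Ahnak, a large scaffold under the plasma membrane (-0.30 ± 0.052), Plec, the cytolinker plectin (-0.27 ± 0.050), Lrp1, an endocytic receptor (-0.45 ± 0.060), and Eef2, the elongation factor (-0.20 ± 0.046), fell with it.

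Calls of growth medium were partly shared with differentiation medium. Of the 1194 genes that rose, 553 also rose and 23 fell there, and of the 1340 that fell, 788 also fell and 32 rose. The shares of all tested genes that passed in differentiation medium are not reported here. Fold changes followed GC content there as well (Spearman's rho -0.266, against -0.274 in growth medium). The part of this trend in the overlap was not tested. The AA effect itself differed between media in 641 of the tested genes (5.24%), of which 143 had risen and 156 had fallen in growth medium. The lower values of Lgr6 (-2.00 ± 0.21 in differentiation medium) and Nr4a2 (-1.15 ± 0.12), and the higher ones of Nkd2 (1.72 ± 0.12), Axin2 (1.58 ± 0.15), Ttn (0.90 ± 0.094) and H19 (0.87 ± 0.062), recurred there, as log2 fold changes of DM-AA over DM-PBS.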

How the data were processed

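Messenger RNA of C2C12 cells was sequenced as 12 libraries, made from cells lysed in the dish after 12 h of treatment (per the labels' protocols). The submitters' processing notes name BWA 0.5.9-r16 and the mm9 genome. How reads were counted, with which strand setting and gene models, is not given in the sources used here. Read counts per gene and RPKM values were deposited by the authors; the RPKM were used only for a minimum of 5 RPKM in the rule for naming genes and, through their divisor, as an alternative library size. Deposited RPKM recomputed from the counts, gene lengths and this divisor differed by at most 0.0005%. No library had a read of 27.9% of the genes.

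Genes were kept by edgeR's filterByExpr, scaled by TMM and tested with edgeR 4.0.16 (quasi-likelihood test, group means of all 4 groups, Benjamini-Hochberg adjustment at 5%, R 4.3.3). The same test was also run on counts simulated from the means and spread of these libraries. It recovered 40.3% of genes changed 1.2-fold, 77.6% of those changed 1.5-fold and 93.9% of those changed 2-fold, with 7 false calls. A gene that did not pass may therefore have changed by a small fold. The SE is the log2 fold change divided by the square root of F. DESeq2 1.42.0 was an alternative. Transcript GC content and overlaps came from an annotation of another build, matched by symbol (98.5% of genes), and promoters from RefSeq on GRCm38.p6; no coordinates of the deposited files were converted.

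Gene lists and members were chosen with earlier results of these data known. Genes were named by rule: the 15 higher and 15 lower of largest fold whose libraries do not overlap and whose higher group reaches 5 RPKM, the 8 each way of largest CPM difference, up to 4 of smallest p in each list and others of it where a role is described, and fixed genes of ketone use, proliferation and myogenesis. Ibsp, Sost, Kit and Sox9 were named as list members. Some genes that this rule names are not reported here.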

Additional observations from a re-analysis of the deposited data

Results flagged for a closer look

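The effect of AA on 45 of the genes named above differed between growth and differentiation medium in a test of the difference itself, edgeR's quasi-likelihood test of the interaction with Benjamini-Hochberg adjustment over all tested genes (adjusted p between 2.67e-08 and 0.0435). Named and tested were 184 genes that passed in growth medium and 19 that did not. Over all 12230 tested genes, 641 differed between media (5.24%). Many genes were named for a large or clear change in growth medium, and this test uses the same growth-medium values. The share among named genes is therefore not a result about them. The difference is given here as the log2 fold change in differentiation medium minus that in growth medium. The 45 genes are set out by how their growth-medium change compared with that in differentiation medium (3 libraries a group in each medium).

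Some genes of DNA replication and mitosis fell in growth medium and rose in differentiation medium. Mcm5, of the replicative helicase, changed by -0.21 ± 0.049 in growth medium and 0.37 ± 0.058 in differentiation medium, a difference of 0.58. Aurkb, the mitotic kinase, changed by -0.25 ± 0.054 in growth medium and 0.30 ± 0.057 in differentiation medium, a difference of 0.54, and the polymerase gene Pole by -0.28 ± 0.063 and 0.22 ± 0.076 in the same order, a difference of 0.50. Pold1 (0.63) and Ncapd2 (0.35) fell in growth medium and did not pass in differentiation medium. Mki67 did not pass in growth medium and rose in differentiation medium, with a difference of 0.31, and the CDK inhibitor Cdkn1a did the same (0.25). The HLH repressor Id2 fell in growth medium and rose in differentiation medium (0.71).

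Several genes that rose in growth medium were not past the test in differentiation medium. Tpsab1 was scarce in differentiation medium, with means of 1.62 CPM in DM-AA and 1.67 CPM in DM-PBS. It changed by 1.2 ± 0.093 in growth medium and -0.066 ± 0.30 in differentiation medium, a difference of -1.27 with an adjusted p of 0.0129. Mylk2, the skeletal myosin light chain kinase, changed by 1.01 ± 0.093 and -0.19 ± 0.13 in the same order (-1.2), Txnip by 0.98 ± 0.12 and -0.022 ± 0.063 (-1.0), Ogn by 0.90 ± 0.095 and -0.033 ± 0.061 (-0.94), and Inhbb by 0.62 ± 0.048 and -0.092 ± 0.047 (-0.72). The differences were -0.68 for Postn, -0.35 for Atp6v1a, -0.28 for Malat1, -0.30 for Slc7a5 and -0.23 for Acsl3, which likewise rose in growth medium and did not pass in differentiation medium. Sc4mol (-0.46) and Nid1 (-0.39) rose in growth medium and fell in differentiation medium. Neu1 (-0.43), Igfbp5 (-0.35), Myf5 (-0.37) and Jph2 (-0.29) rose in both media, by more in growth medium. Acta1 (1.02) and Myog (0.59) rose in both, by more in differentiation medium; Acta1 is uncertain for the reason given above.

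Of the genes that fell in growth medium, Nos2 (0.97), Angptl4 (0.58), Myod1 (0.40), Creb3l1 (0.33) and Cdh11 (0.29) did not pass in differentiation medium. Snai1 (0.49), Dusp10 (0.27), Egr1 (0.25) and Smad3 (0.24) fell in both media, by more in growth medium. Larger falls in differentiation medium were found for Cebpd (-0.87), Cxcl5 (-0.83), Fgf7 (-0.70), Ctgf (-0.38), Spp1 (-0.37), Cxcl12 (-0.34), Slc25a1 (-0.30), Lox (-0.25) and Fn1 (-0.24). Stat3 did not pass in growth medium and fell in differentiation medium (-0.24).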

How the results depend on the processing

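The count of genes past the test, 2534 (332 of at least 1.5-fold), stayed within 1.5 times of that value under every alternative run. It was 2288 with only growth-medium libraries in the fit, 2538 with RLE normalization, 2555 with library sizes taken from the RPKM divisor (1317 higher, 1238 lower), 2621 with no filter on low counts, 2403 with the GC and length trend removed and 1798 with DESeq2. Leaving out 1 library at a time gave 1838 (without GM-PBS 1) to 2234 (without GM-PBS 2). A test against a fold of 1.2 called 327 genes (134 higher, 193 lower), of which 199 were among the 332. The count of genes whose effect differed between media, 641, ran between 476 (DESeq2) and 823 (GC and length trend removed). With the replicate number as a block, 2429 genes passed for AA against PBS and 581 for the difference between media, and block and trend removal together gave 2385 and 810; same-numbered libraries did not deviate together (correlations of -0.018, -0.0077 and 0.024), so the numbers were not taken to pair the samples. The median log2 fold change of all genes lay between -0.0048 and 0.0068 under these settings. Of the 184 genes named in the text that passed, 177 passed under every alternative that tested them and 7 lost the call under at least 1, with values given beside them. Genes were named partly for a small p, a large fold or separated libraries, so this count does not speak for all calls. With 1 library left out, 1710 (without GM-PBS 1) to 2025 (without GM-PBS 2) of the 2534 calls were kept. With DESeq2 1789 were kept, and with RLE normalization 2529. Of the counts of 4 or more for gene lists, 23 of 48 moved by over 1.5 times under at least 1 alternative, each given beside its list. Of the counts below 4, 19 moved by over 1.5 times under at least 1 alternative, not all of which are given. The cause was not tested for either. Some named genes that did not pass changed direction: Sesn2 to 0.015 with the trend removed and 0.012 with block and trend, and Nr4a1 to 0.041 with the trend removed and 0.045 with block and trend. Leaving out each library in turn put Cdkn1a between -0.097 and 0.0023, Atp2a2 between -0.039 and 0.0037, Stat3 between -0.096 and 0.0016, Lef1 between -0.084 and 0.13, Sesn2 between -0.13 and 0.039 and Nr4a1 between -0.14 and 0.056. At this depth the median SE of a log2 fold change was 0.081, and genes of a few reads a library, such as Trim63, carry wider errors.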
